A study of Mus musculus with 6 samples.

Results

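The proprotein convertases are proteases of the secretory route, described here through 7 of the 17830 genes in the count table: Furin, Pcsk1, Pcsk4, Pcsk5, Pcsk6, Pcsk7 and Mbtps1. They were chosen by gene symbol because Pcsk5 was higher in the APPswe libraries, so the same genotype contrast selected them and their values and calls between genotypes are given as a description that supports nothing further. The libraries came from skull bone of 6-month-old mice, which the study describes as male. Control mice carried mOCN-Cre, a Cre knocked into the endogenous osteocalcin gene, and Ai9, a reporter that makes tdTomato after Cre has acted. APPswe mice carried these alleles together with LSL-APPswe, a human APP transgene with the Swedish mutation that is silent until Cre removes a stop cassette. The paper describes tdTomato-positive calvarial osteoblasts sorted from the skulls, and separately describes cultures of cells that grow out of calvarial bone chips. It does not say whether the sorted cells had been cultured. RNA was sequenced from 3 control and 3 APPswe libraries. Expression of the transgene and the sort both depend on osteocalcin promoter activity at some time in a cell's history. The labels do not say whether the libraries came from separate animals, so p-values measure only the spread between these libraries, which may be technical.

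The convertases other than Mbtps1 cut precursor proteins after basic residues and so release active growth factors, hormones, receptors and proteases. Furin and Pcsk7 act in the trans-Golgi network and endosomes of most cells, Pcsk5 and Pcsk6 also work at the cell surface and in the matrix, and Pcsk1 works in the secretory granules of neuroendocrine cells. Mbtps1, the site-1 protease, cuts membrane-bound transcription factors in the Golgi and is needed for normal skeletal growth.

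Total counts were 17649704, 18134411 and 18398392 in control replicates 1, 2 and 3 and 17263757, 17555489 and 17483141 in APPswe replicates 1, 2 and 3. A floor of 3 counts corresponded to between 0.167 and 0.173 CPM (counts scaled to a common library size after TMM), which covers counting error only. Control replicate 2 stood apart from the other control libraries. It alone has S in its library name where the others have L, and the labels do not explain these letters. Its counts differed from those of control replicates 1 and 3 by a chi-square per degree of freedom of 72.9 and 77.2, against 5.94 between those libraries and between 1.57 and 7.60 within APPswe. Counts of the 4 Y-linked genes examined summed to 2 in control replicate 2, against 2257 to 3406 elsewhere. Bglap, which encodes osteocalcin, had 1 count there, against 115 to 204 elsewhere. The Y-linked counts of this library go against the male sex given for the mice, and whether control replicate 2 came from another sex or another mix of cells was not tested. For this reason the counts over lists and the values of the genes named in them are also given without control replicate 2.

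The labelled cell type was checked against markers. Calls of marker genes, made by edgeR at an adjusted p of 0.05 or lower and a log2 fold change of 1 or more in size, stand beside 7.34% of all genes tested called, 3.74% higher and 3.60% lower. None of the 12 osteoblast markers was at 0 in any library, and their summed level lay between 3819 and 5755 CPM, most of it from Col1a1, a collagen gene that other stromal cells also express. Sp7, a transcription factor of bone-forming cells, was the 1 osteoblast marker called, and it was higher, while without control replicate 2 there were 1 called higher and 3 called lower. Dmp1, a matrix gene of osteocytes, was at 15.1, 0.112 and 14.3 CPM in control replicates 1, 2 and 3 and at 0.673, 0.891 and 0.787 CPM in APPswe replicates 1, 2 and 3. In control replicate 2 the median osteoblast marker was at 1.12 CPM, against 14.0 to 16.4 CPM in the other libraries. The 13 macrophage markers, led by Lyz2, summed to 18025 to 24942 CPM in control libraries and 12512 to 13501 CPM in APPswe, with 1 called higher and 1 called lower, so they outweighed the osteoblast markers in every library.

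The 10 muscle markers, led by Des in control replicates 1 and 3 and by Myl1 over all libraries, summed to 2.02, 8.71 and 2.20 CPM in control replicates 1, 2 and 3 and to 142, 135 and 139 CPM in APPswe replicates 1, 2 and 3. All 9 that could be tested were called higher, and Ckm was at 0 in every control library, as were Myod1 in control replicates 1 and 3 and Actn2 in control replicate 3. Apart from Des, the tested muscle markers passed the filter on low counts only through the APPswe libraries. Their calls, here and without control replicate 2, were thus largely fixed in advance and support nothing. The 8 osteoclast markers, led by Ctsk, summed to 289.8, 158 and 274 CPM in control and to 730.4, 730.7 and 719 CPM in APPswe libraries, with 4 of 7 tested called higher and Calcr at 0 in control replicates 2 and 3. Oscar and Ocstamp also passed the filter only through the APPswe libraries, as did Mmp9, whose 10 counts in control replicate 2 fell just under its cutoff. The summed levels of every cell type list except the osteoblast list did not overlap between genotypes. The groups of 45.0% of all genes tested did not overlap either, so this is not particular to the muscle and osteoclast lists. The 10 endothelial markers, led by Emcn in control replicates 1 and 3 and by Vwf over all libraries, summed to 268, 83.6 and 290.4 CPM in control and to 28.7, 29.0 and 31.9 CPM in APPswe libraries. Of the 8 tested, 2 were called lower, and Tie1 and Cldn5 were at 0 in control replicate 2, as was Cldn5 in APPswe replicate 1. The 8 fibroblast markers, led by Col3a1, summed to 1541 to 3207 CPM in control libraries and 5576 to 5715 CPM in APPswe, with 2 called higher. Most of that sum was Col3a1, and Dcn, Lum, Fap and Dpt were lower in each APPswe library than in control replicates 1 and 3, though not than in control replicate 2, and the list median without that library was -0.20. The 8 markers of smooth muscle and pericytes, led by Acta2, summed to 1340 to 2469 CPM in control libraries and 2716 to 2824 CPM in APPswe, with 1 called higher and a list median of -0.45 without control replicate 2. Without control replicate 2, all 10 endothelial markers were called lower, 5 osteoclast and 9 muscle markers were called higher, 3 smooth muscle or pericyte markers were called higher and 1 lower, 2 fibroblast markers higher and 1 lower, and 1 macrophage marker lower, where 11.5% of all genes were called. In that fit Tie1 and Cldn5 passed the filter only through the control libraries, and Oscar and Ocstamp only through the APPswe libraries. Calls of these genes there were thus largely fixed in advance and support nothing. In these bulk samples fewer cells of a type and less RNA per cell cannot be told apart, and the part of these marker lists in the convertase values below was not tested.

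**Figure D1:**
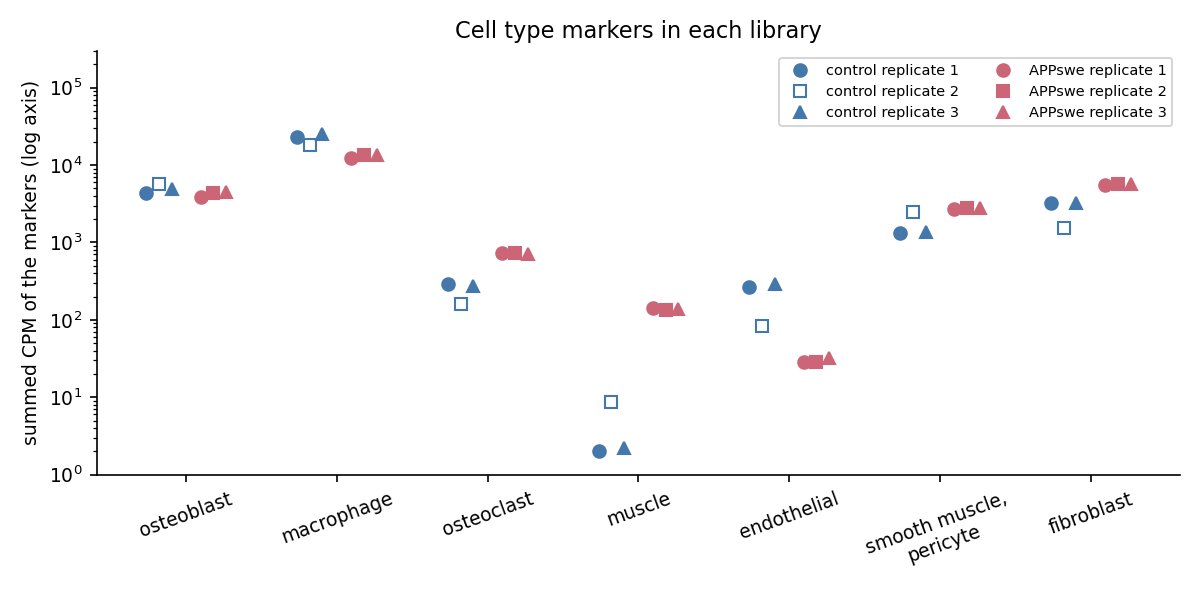
Summed CPM of each marker list (log axis) in the 3 control and 3 APPswe libraries, 1 symbol per library, with control replicate 2 open. Muscle markers lie at 2.02 to 8.71 CPM in control libraries and at 135 to 142 CPM in APPswe, and macrophage markers are the most abundant list in every library.

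Of the 7 convertase genes all passed the filter on low counts, 1 was called higher (Pcsk5) and 1 lower (Pcsk1) in APPswe libraries where a call needed an edgeR adjusted p no higher than 0.05 and a log2 fold change of 1 or more in size. Over all 13484 genes tested, 7.34% were called, 3.74% higher and 3.60% lower. Since this contrast selected the genes, nothing is read from their count. Pcsk1 also passed the filter only through the control libraries. In CPM, the groups did not overlap for 4 of the 7, Pcsk5, Pcsk1, Pcsk6 and Furin, as for 45.0% of all genes tested. The median log2 difference over the 7 genes was -0.11, against 0.00 over all genes tested (-0.00331 before rounding). Without control replicate 2 it was -0.04, against 0.01, and the same 2 members were called, with 11.5% of 13753 genes tested called, 4.87% higher and 6.58% lower.

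Pcsk5, NCBI gene 18552, encodes a convertase of growth and differentiation factors that is known from mouse mutants for its part in patterning the skeleton. The gene lies on the minus strand at chr19:17432314-17837712 (GRCm38) and spans 405399 bases. GENCODE lists 2 protein-coding transcripts of 7188 and 5768 bases that share a start and end at different places, and the gene counts do not separate them. Pcsk1, NCBI gene 18548, lies on the plus strand at chr13:75089420-75134861. Promoter windows in the RefSeq table (GRCm38.p6) matched 6 of the 7 genes, all but Pcsk4. The windows of Pcsk5 and Pcsk1 are shown because these genes were called in opposite directions. The Pcsk5 window, chr19:17837633-17837882 on the minus strand, holds the 250 bases before the start in the table, and GENCODE annotates no exon of the gene in it, although the 80 bases next to that start lie inside the gene's RefSeq span. The Pcsk1 window, chr13:75089607-75089825 on the plus strand, holds 219 bases and stops where the first GENCODE exon begins, and the gene span in RefSeq starts further upstream. Capitals mark matches to the motifs searched.
Pcsk5: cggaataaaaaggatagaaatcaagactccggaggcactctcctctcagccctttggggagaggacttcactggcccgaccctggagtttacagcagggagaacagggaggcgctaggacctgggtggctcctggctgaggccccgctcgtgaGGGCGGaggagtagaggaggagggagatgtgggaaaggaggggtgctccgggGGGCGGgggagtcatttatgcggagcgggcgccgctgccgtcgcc
Pcsk1: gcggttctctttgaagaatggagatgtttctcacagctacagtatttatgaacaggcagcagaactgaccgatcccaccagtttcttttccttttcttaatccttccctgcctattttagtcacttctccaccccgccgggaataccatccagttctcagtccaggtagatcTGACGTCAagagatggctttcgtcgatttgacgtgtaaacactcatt
Motifs were searched on both strands of the 250 bases before each start, in 32851 windows. The GC box GGGCGG was found 2 times in the Pcsk5 window, starting 97 and 45 bases before the start, and in 32.7% of all windows. It was also found 2 times in the Pcsk6, 3 times in the Pcsk7 and 1 time in the Mbtps1 window and 2 times in 1 of the 2 Furin windows, so 5 of the 6 members with a window hold it. The cAMP response element TGACGTCA was found 1 time in the Pcsk1 window, starting 78 bases before the start, and in 1.55% of all windows. The other members' windows did not hold it. The AP-1 motif TGANTCA, present in 6.75% of windows, matched no member, and CCAAT, present in 33.8%, matched 1 of the 2 Furin windows. The GC content was 64.0% in the Pcsk5 and 46.8% in the Pcsk1 window of 250 bases, against a median of 52.4% over all windows. These matches are descriptions of the sequence and not of a factor's binding.

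Pcsk5 was counted at 85, 19 and 100 reads in control replicates 1, 2 and 3 and at 374, 353 and 349 reads in APPswe replicates 1, 2 and 3. All APPswe libraries were above all control libraries, and control replicate 2 was the lowest. Scaled to library size, these were 4.91, 1.07 and 5.64 CPM in control and 21.0, 19.7 and 19.6 CPM in APPswe libraries. The means were 3.87 ± 2.46 CPM (SD, n = 3) and 20.1 ± 0.769 CPM (SD, n = 3), a ratio of 5.18. The spread among control libraries came largely from replicate 2, which was below both other control libraries. Set against control replicates 1 and 3 alone, the APPswe mean was 3.81 times higher. The fitted log2 fold change was 2.37 (standard error 0.50) with all libraries and 1.93 (standard error 0.12) without control replicate 2. The call was lost when any 1 APPswe library was left out, with log2 fold changes of 2.34, 2.39 and 2.39 without replicates 1, 2 and 3. Library names come in 2 styles, with or without a hyphen, and each style holds a genotype with a single library, so the values by style have no spread there and test nothing. With a hyphen, the control libraries had 4.91 and 1.07 CPM and the single APPswe library had 21.0 CPM. Without it, the single control library had 5.64 CPM and 2 APPswe libraries averaged 19.6 CPM.

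**Figure D2:**
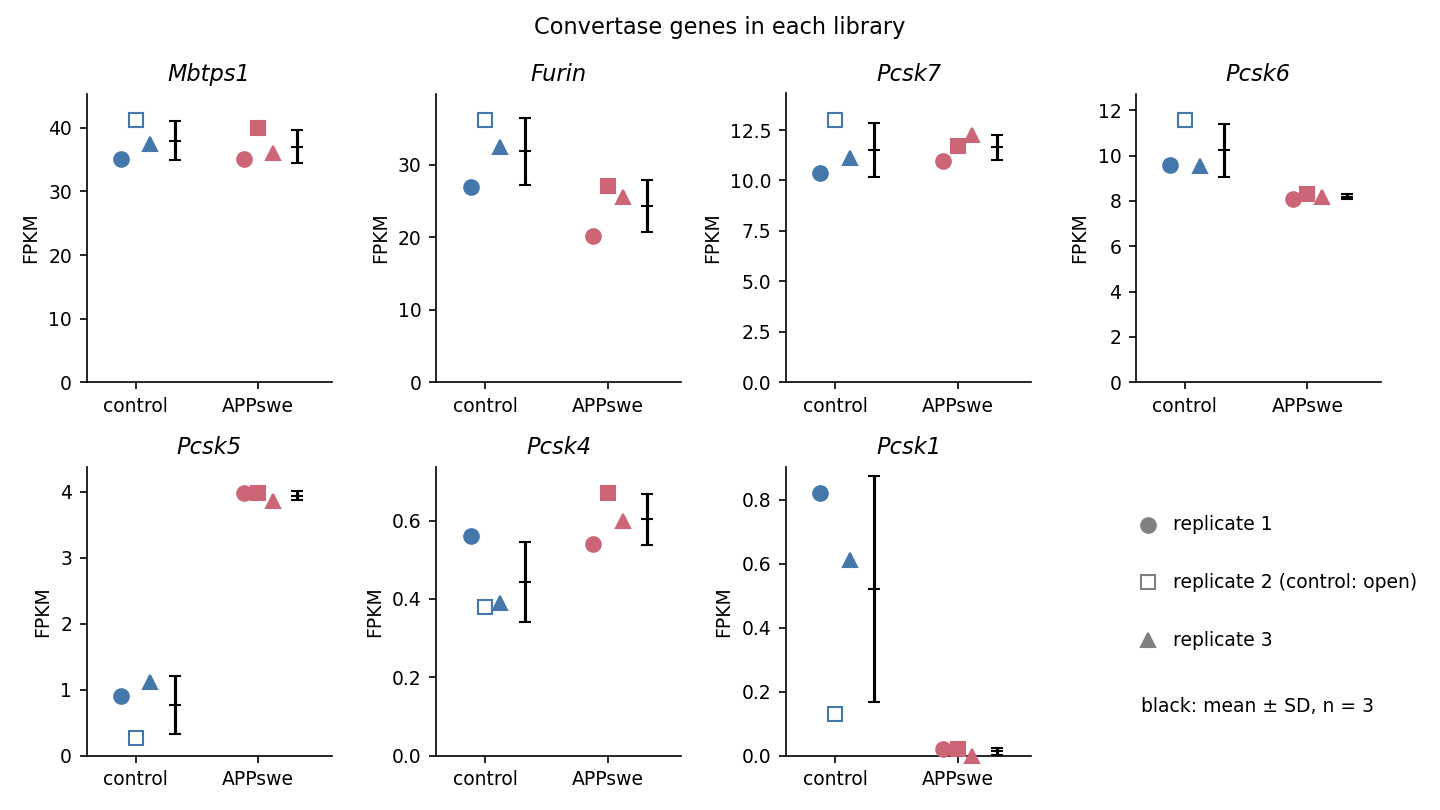
FPKM (reads scaled by transcript length and sequencing depth, as deposited) of the 7 convertase genes in each library, with the mean ± SD of each group (n = 3) in black and control replicate 2 open. Pcsk5 lies between 0.27 and 1.12 FPKM in control and between 3.86 and 3.98 FPKM in APPswe libraries, and Pcsk1 lies lowest in APPswe libraries.

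Pcsk6, NCBI gene 18553, encodes the closest relative of Pcsk5, a convertase held at the cell surface and matrix that cuts TGF-beta family precursors. It lies on the plus strand at chr7:65862136-66050386, and GENCODE places exons of the gene model Gm45213, which is not in the count table, over its exons on the same strand. Pcsk6 was at 39.4, 47.6 and 39.7 CPM in control replicates 1, 2 and 3 and at 31.5, 32.6 and 32.3 CPM in APPswe replicates 1, 2 and 3. Every APPswe library was below every control library, and control replicate 2 was the highest. The log2 fold change was -0.39 (standard error 0.10), and -0.30 (standard error 0.07) without control replicate 2, short of the fold limit. At an adjusted p alone, the rule passed by 22.5% of all genes tested, 3 members passed: Pcsk1, Pcsk5 and Pcsk6. Pcsk6 did not pass with library totals in place of TMM scaling, with limma on FPKM, with the replicate block, with the name style as a covariate, or without control replicate 3 or any 1 APPswe library.

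Furin, NCBI gene 18550, encodes the widely expressed convertase of the trans-Golgi network. It lies on the minus strand at chr7:80389194-80405441, where exons of the antisense gene Gm44851, which is not in the count table, overlap it. Furin was at 109, 147 and 134 CPM in control replicates 1, 2 and 3 and at 76.9, 105 and 99.8 CPM in APPswe replicates 1, 2 and 3. The groups did not overlap, although the lowest control and the highest APPswe library were close. In FPKM they overlapped, since APPswe replicate 2 (27.00) lay above control replicate 1 (26.97). The log2 fold change was -0.47 (standard error 0.16), and -0.37 (standard error 0.13) without control replicate 2. It was negative under every setting run, as was that of Pcsk6. At an adjusted p alone Furin did not pass with all libraries, and passed with DESeq2, with the replicate block and without control replicate 2.

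Pcsk7, NCBI gene 18554, encodes a convertase that cycles between the trans-Golgi network and the cell surface. It lies on the plus strand at chr9:45906447-45932107, and exons of Rnf214 and Tagln on the opposite strand overlap it. Whether the counting used strand is not given in the sources used here, so reads of these genes may not be told apart. Pcsk7 ranged from 39.3 to 48.8 CPM in control and from 39.6 to 44.2 CPM in APPswe libraries, so the groups overlapped. Its log2 fold change was -0.05 (standard error 0.10) with all libraries. The sign turned with library totals in place of TMM (0.02), with limma on FPKM (0.02 with either pseudocount) and without control replicate 2 (0.05, standard error 0.08) or APPswe replicate 1 (0.00135).

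Mbtps1, NCBI gene 56453, lies on the minus strand at chr8:119508151-119558864, with no other GENCODE gene over it. It ranged from 142 to 168 CPM in control and from 135 to 155 CPM in APPswe libraries. These ranges overlapped. The log2 fold change was -0.11 (standard error 0.09), and -0.04 (standard error 0.08) without control replicate 2.

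Pcsk1, which makes peptide hormones from their precursors in secretory granules, was counted at 69, 11 and 53 reads in control replicates 1, 2 and 3 and at 2, 2 and 0 reads in APPswe replicates 1, 2 and 3. Every APPswe library was under the floor of 3 counts, and every control library was above it, with control replicate 2 the lowest of its group. Pcsk1 thus passed the filter on low counts only through the control libraries. Its lower call was largely fixed in advance and is a description that supports nothing. Summed over libraries, 133 control and 4 APPswe counts gave a ratio of 33.7 between control and APPswe after scaling (95% Clopper-Pearson interval 12.9 to 126, for counting error only). The controls differed among themselves too, at 3.98, 0.618 and 2.99 CPM. The call was lost when any 1 APPswe library was left out, with fitted log2 fold changes of -5.33, -5.32 and -4.42 without replicates 1, 2 and 3, values that depend on the prior count. It was also lost with limma on log2(FPKM + 1), and it held without control replicate 2, with a log2 fold change of -5.41 that depends on the prior count too.

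Pcsk4, NCBI gene 18551, encodes the convertase of male germ cells and lies on the minus strand at chr10:80321283-80329748. It had between 15 and 24 counts in control and between 21 and 28 counts in APPswe libraries. The groups overlapped, and the log2 fold change was 0.36 (standard error 0.28), and 0.29 (standard error 0.29) without control replicate 2.

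**Figure D3:**
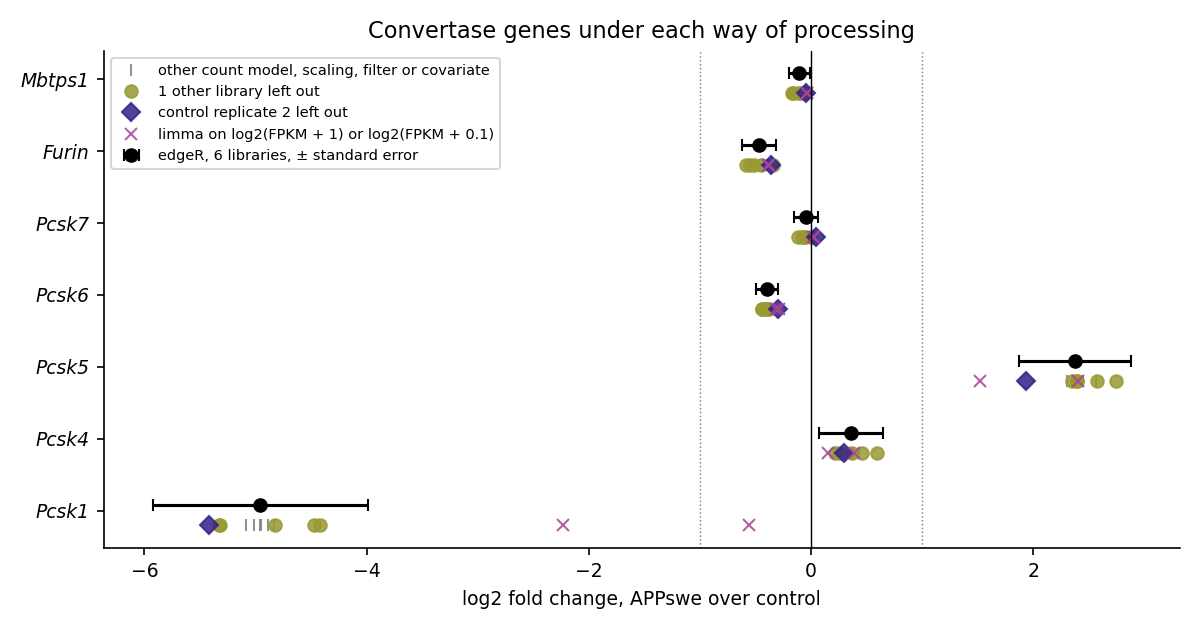
Log2 fold change of each convertase gene, APPswe over control, with all 6 libraries (black, ± standard error) and under each alternative (symbols below it); dotted lines mark the fold limit of 1. Pcsk5 stays between 1.52 and 2.74, Pcsk7 crosses 0, and the Pcsk1 values depend on the prior count or pseudocount because its APPswe counts are 2, 2 and 0.

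Levels of different genes were compared per length, in FPKM. By mean FPKM over the 6 libraries the order was Mbtps1 (37.5), Furin (28.1), Pcsk7 (11.6), Pcsk6 (9.20), Pcsk5 (2.35), Pcsk4 (0.523) and Pcsk1 (0.267). The median gave the same order. Mbtps1 was above Furin, Furin above Pcsk7, and Pcsk7 above Pcsk6 in 6 of 6 libraries, although the ranges of Mbtps1 and Furin, and of Pcsk7 and Pcsk6, overlapped across libraries. Pcsk5 was above Pcsk4 in 5 of 6 libraries, the exception being control replicate 2. Pcsk4 was above Pcsk1 in all 3 APPswe libraries and in control replicate 2, and Pcsk1 was above Pcsk4 in control replicates 1 and 3. The order of these 2 genes thus differed between libraries, and by group mean Pcsk1 (0.520 FPKM) was above Pcsk4 (0.443 FPKM) in control and below it in APPswe libraries (0.0133 and 0.603 FPKM).

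Pcsk5 made up 1.07%, 0.263% and 1.21% of the summed FPKM of the 7 genes in control replicates 1, 2 and 3. In APPswe replicates 1, 2 and 3 it made up 5.05%, 4.34% and 4.47%. Its share was higher in each APPswe library than in any control library, yet it stayed below Pcsk6 in all of them. Mbtps1 and Furin together held most of the sum throughout, with Mbtps1 between 40.1% and 44.5% and Furin between 25.6% and 35.2%. The sum itself was 84.4, 103 and 92.6 FPKM in control and 78.9, 91.7 and 86.4 FPKM in APPswe libraries, and these ranges overlapped.

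Pearson's correlation of log2 CPM over the 6 libraries was used as a measure of likeness, as a description. The points fall into the 2 genotypes with control replicate 2 apart, so many genes score high: 80 of 12210 genes ranked had r of at least 0.99 with Pcsk5. The 6 most like Pcsk5 were Cilp (r = 0.999), Piezo2 (0.999), Adgrd1 (0.999), Pde1b (0.999), Lrp6 (0.998) and Lgi2 (0.998). Cilp, a cartilage matrix gene, was at 9.07, 1.46 and 10.3 CPM in control and at 46.1, 46.4 and 49.6 CPM in APPswe libraries. Like Pcsk5 it was lowest in control replicate 2. Pcsk6 had an r of -0.994 with Pcsk5 and was most like Klhdc8a, Cdk18 and Pml, and Furin was most like Zfp646, Zbtb7b and Socs7, with r between 0.993 and 0.999 for these 6 genes.

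The 3 nearest protein-coding genes on each side of Pcsk5 in RefSeq were all tested, and 0 of the 6 were called by edgeR, beside 7.34% of all genes. On the side of its 3' end, Rfk, 30965 bases away, had a log2 fold change of -0.07 (standard error 0.11), Gcnt1 -0.56 (standard error 0.17) and Prune2 -0.48 (standard error 0.37). On the side of its start, Ostf1, 742652 bases away, had 0.20 (standard error 0.07), Nmrk1 0.88 (standard error 0.15) and Carnmt1 0.26 (standard error 0.15). Nmrk1, a kinase gene of NAD synthesis, had an edgeR adjusted p of 0.00934 and fell short of the fold limit. The others had edgeR adjusted p between 0.0519 and 0.678. Without control replicate 2, which had the highest Prune2 level, Prune2 turned to 0.08 (standard error 0.14), Gcnt1 was at -0.37, Rfk at -0.16, Ostf1 at 0.17, Nmrk1 at 0.89 and Carnmt1 at 0.43. Gcnt1, Ostf1, Nmrk1 and Carnmt1 then had edgeR adjusted p of 0.00701, 0.0401, 0.000497 and 0.00379, all short of the fold limit. In that fit 48.3% of all genes had an adjusted p of 0.05 or lower, against 22.5% with all libraries.

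**Figure D4:**
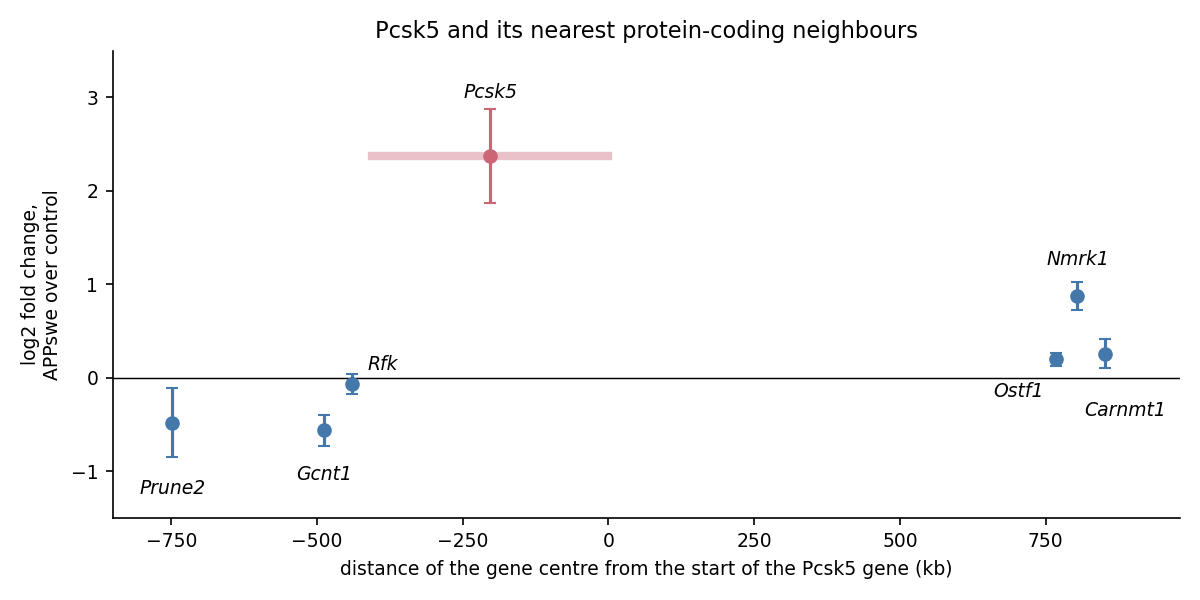
Log2 fold change ± standard error of Pcsk5 (red, the bar is the gene's span) and of its 3 nearest protein-coding genes on each side, against the distance of the gene centre from the start of Pcsk5. Pcsk5 is at 2.37 and its neighbours lie between -0.56 and 0.88.

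Substrates and partners of the convertases were taken from lists that follow the family's known roles, and their genes were tested by edgeR over all genes. Among 30 secreted ligand precursors, 23 could be tested, 1 was called higher and 1 lower (8.70%, with 7.34% of all genes tested called), and the median log2 fold change was -0.28, against 0.00 over all genes. Bdnf, a neurotrophin cut by Furin and other convertases, fell from 28.9 ± 7.24 CPM to 7.04 ± 0.637 CPM (SD, n = 3). The log2 fold change was -2.04 with a standard error of 0.21 (edgeR adjusted p = 0.00171). Its call held in each fit with 1 library left out, with an edgeR adjusted p of at most 0.0184. Angptl4, an inhibitor of lipoprotein lipase, rose from 23.1 ± 14.2 CPM to 83.1 ± 1.24 CPM (SD, n = 3). On the log2 scale the difference was 1.85 with a standard error of 0.50 (edgeR adjusted p = 0.0415). It lost the call without control replicate 1 or 3 or any 1 APPswe library, with edgeR adjusted p between 0.0626 and 0.124. Tgfb1, the ligand with the highest mean FPKM (92.7), had a log2 fold change of -0.94, with standard error 0.09 and edgeR adjusted p = 0.00162, short of the fold limit, and was called at -1.02 without control replicate 2. Without that library 8 of 24 ligands tested were called, 2 higher and 6 lower, with a list median of -0.24, where 11.5% of all genes were called. Bdnf was then at -2.23 and Angptl4 at 1.41 on the log2 scale.

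Of 18 receptor and adhesion precursors, all were tested and 2 fell (11.1%, beside 7.34% called and 3.60% called lower over all genes), with a median of -0.07. Itga3, an integrin chain that binds laminins, fell from 18.5 ± 3.79 CPM to 4.46 ± 1.35 CPM (SD, n = 3). The log2 fold change was -2.05 with a standard error of 0.26 (edgeR adjusted p = 0.00336). L1cam, a neural adhesion molecule, fell from 43.9 ± 22.0 CPM to 14.1 ± 1.06 CPM (SD, n = 3; log2 fold change -1.64, edgeR adjusted p = 0.0163). The L1cam call was lost without any 1 APPswe library (edgeR adjusted p between 0.0697 and 0.0784), and also with the name style as a covariate (edgeR adjusted p = 0.0535), and the Itga3 call held in each of these fits. Lrp1, an endocytic receptor cut by Furin, had the highest mean FPKM of the list (118) and a log2 fold change of -0.58 (standard error 0.16). The same 2 genes, Itga3 and L1cam, were called without control replicate 2, at -2.21 and -1.14, Lrp1 was at -0.41, and the median was then 0.16, in a fit that called 11.5% of all genes.

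Among 21 protease and other membrane or matrix precursors, 2 rose and 2 fell (19.0%, beside 7.34% over all genes), with a median of -0.09. Adam12, a metalloprotease of fusing and mesenchymal cells, rose from 21.7 ± 1.23 CPM to 83.5 ± 3.84 CPM (SD, n = 3). This was a log2 fold change of 1.94 with a standard error of 0.08 (edgeR adjusted p = 0.000287). Control replicate 2 was like the other controls for this gene, at 407 counts beside 354 and 388. Fbn1, the precursor of fibrillin of the matrix microfibrils, rose by a log2 fold change of 1.25, with standard error 0.30 and edgeR adjusted p = 0.0275. Fbn1 was not called without control replicate 1 or 3 or any 1 APPswe library (edgeR adjusted p between 0.0664 and 0.0950). Lipg, endothelial lipase, fell from 98 counts over the control libraries to 6 over the APPswe libraries, a ratio of 16.6 (95% Clopper-Pearson interval 7.34 to 46.2, for counting error only, and edgeR adjusted p = 0.00401). Lipg passed the filter on low counts only through the control libraries, so its call, counted in the share above, is a description that supports nothing. Mmp16, a membrane-bound matrix metalloprotease, fell by 1.09 on the log2 scale (standard error 0.23, edgeR adjusted p = 0.0197), and by 0.79 without control replicate 2, short of the fold limit. The Mmp16 call was also lost without any 1 APPswe library, with edgeR adjusted p up to 0.0907, and with the name style as a covariate, where it fell short of the fold limit. Itm2b, the most abundant gene of the list at a mean of 1167 FPKM, had a log2 fold change of -0.15 (standard error 0.16). Without control replicate 2, Adam12 (1.98) and Fbn1 (1.71) rose and Lipg (-3.64) fell, Itm2b was at -0.32 with an edgeR adjusted p of 0.000807, and the median was -0.03, with 11.5% called over all genes.

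**Figure D5:**
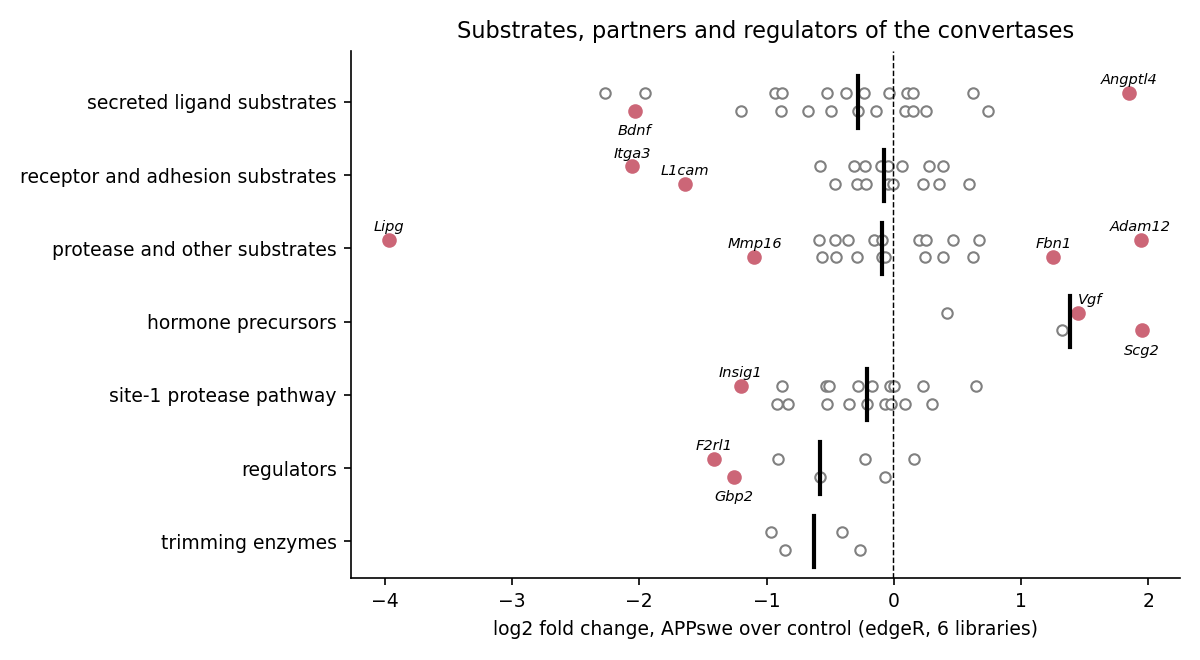
Log2 fold change, APPswe over control, of each tested gene in the 7 lists of substrates, pathway genes, regulators and trimming enzymes, with called genes filled and named, list medians as black bars and the median of all genes dashed. Called genes lie on both sides of 0 in the ligand and protease lists, and the 2 called hormone precursors lie above it.

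The hormone precursors are the substrates of Pcsk1. Of 8 listed, 7 were in the count table and 4 could be tested. Scg2 and Vgf, granin-family precursors of secreted peptides, were called higher, 2 of the 4 where 3.74% of all genes were called higher, and the median over the 4 was 1.39. With 5 counts in control replicate 2, Scg2 passed the filter on low counts only through the APPswe libraries. Its call, counted in this share, is thus a description that supports nothing. Scg2 rose from 1.18 ± 0.785 CPM to 4.57 ± 0.561 CPM (SD, n = 3; edgeR adjusted p = 0.0415), a log2 fold change of 1.95 (standard error 0.53). Vgf rose from 3.74 ± 1.34 CPM to 10.2 ± 1.71 CPM (SD, n = 3; edgeR adjusted p = 0.0132), a log2 fold change of 1.45 (standard error 0.28). The Scg2 call was lost without control replicate 1 or 3 or any 1 APPswe library (edgeR adjusted p between 0.0588 and 0.137), and that of Vgf without APPswe replicate 2 or 3 (between 0.0630 and 0.0681 by edgeR). Penk, the enkephalin precursor and the list's most abundant gene by FPKM (20.3), was at 11.9 ± 8.93 CPM in control and 29.7 ± 1.49 CPM in APPswe libraries (SD, n = 3), and was not called (edgeR adjusted p = 0.204). Without control replicate 2 Scg2 (1.49) and Vgf (1.79) were called, Penk was at 0.81 with an edgeR adjusted p of 0.0000730, short of the fold limit, and the median was 1.15, with 4.87% of all genes called higher.

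The site-1 protease encoded by Mbtps1 activates the sterol factors of the Srebf genes and the stress factor Atf6. Of 19 genes of this pathway, all were tested and 1 fell (5.26%, under the 7.34% called over all genes), with a median of -0.21, and -0.12 without control replicate 2. Insig1, which holds the sterol sensor in the endoplasmic reticulum, fell from 144 ± 19.0 CPM to 62.7 ± 1.75 CPM (SD, n = 3). The log2 fold change was -1.20 with a standard error of 0.11 (edgeR adjusted p = 0.00105). Its call held in each fit with 1 library left out, with an edgeR adjusted p of at most 0.0142. Hspa5, the chaperone induced by Atf6 and the most abundant gene of the list at 456 FPKM, had a log2 fold change of -0.28, with standard error 0.12 and edgeR adjusted p = 0.151. With control replicate 2 left out, Insig1 was at -1.09 and Hspa5 at -0.13, and 1 of the 19 genes was called beside 11.5% of all genes.

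Among 9 regulators, 7 could be tested and 2 fell (28.6%, beside 7.34% called and 3.60% called lower over all genes), with a median of -0.58, and -0.35 without control replicate 2. Gbp2, an interferon-induced GTPase that limits Furin activity, fell from 40.4 ± 21.9 CPM to 16.9 ± 1.24 CPM (SD, n = 3; edgeR adjusted p = 0.0444). Its log2 fold change was -1.26 (standard error 0.35), and -0.71 without control replicate 2, where it was no longer called. F2rl1, a receptor activated by proteolysis, fell by 1.41 on the log2 scale (standard error 0.29, edgeR adjusted p = 0.0179). Both calls were lost without any 1 APPswe library, with edgeR adjusted p from 0.0570 to 0.0911 for F2rl1 and up to 0.153 for Gbp2, and F2rl1 was the 1 regulator called without control replicate 2, at -1.59, beside 11.5% of all genes. Flna, a filamin that tethers Furin and the most abundant regulator by FPKM (146), had a log2 fold change of 0.16 (standard error 0.30), and of 0.62 (standard error 0.07) without control replicate 2.

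The carboxypeptidases and the amidating enzyme trim the ends that convertases leave. Of 6 listed, 4 could be tested and 0 were called by edgeR or by DESeq2, beside 7.34% of all genes by edgeR. The median was -0.63, and 2 of the 4 had an unadjusted p under 0.05, as did 37.2% of all genes. Cpe, carboxypeptidase E and the most abundant by FPKM (102), had a log2 fold change of -0.85, with standard error 0.19 and edgeR adjusted p = 0.0226, short of the fold limit. Pam, the amidating enzyme, was at -0.97 with all libraries (standard error 0.37, edgeR adjusted p = 0.106), and its groups overlapped in CPM. Without control replicate 2, in which Pam was low, Cpe and Pam were called lower, at -1.05 and -1.32 on the log2 scale, 2 of 4 beside 11.5% of all genes, and the median was -0.78.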

How the data were processed

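Bulk RNA sequencing of 6 libraries, 3 control and 3 APPswe, was analysed, with groups taken from the sample labels. The authors deposited whole-number read counts for each gene, not normalized, and FPKM values that they had computed. The aligner and counting tool are not given in the sources used here, and the submitters' processing notes name the build GRCm38. Blank FPKM cells were read as 0, and no convertase gene had one. The authors' columns of log2 fold changes and p-values hold their own comparison of the genotypes and were not used.

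The count analysis used edgeR 4.0.16 under R 4.3.3: TMM scaling, filterByExpr (13484 of 17830 genes kept), and the quasi-likelihood test with Benjamini-Hochberg adjustment over all genes tested, with calls made where the adjusted p was 0.05 or lower and the log2 fold change 1 or more in size. The fit was tested on simulated data. Alternatives used DESeq2 1.42.0, limma 3.58.1 on log2 FPKM, other scaling, no filter, covariates and each library left out in turn. The convertase genes and the gene lists were chosen with earlier results of these data known. Named genes are the convertases, in each list the called genes (up to 6) and the gene with the highest mean FPKM, the 3 nearest genes on each side of Pcsk5, and the genes most like Pcsk5, Pcsk6 and Furin. Pam was named after its values were seen. The result of 1 listed gene is not reported here. Positions and promoters came from RefSeq (GRCm38.p6) and transcripts and overlaps from GENCODE.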

Additional observations from a re-analysis of the deposited data

How the results depend on the processing

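With all 6 libraries and edgeR, 990 genes were called, 504 higher and 486 lower, and 2 convertase genes. The replicate numbers did not pair the samples: deviations of same-numbered libraries correlated at 0.07, -0.04 and 0.16, and with the replicate block 708 genes were called, 1 ligand, 1 hormone precursor and 0 regulators, with 2 convertase genes. With library name style as a covariate, 788 of 13484 genes tested were called. The list counts were then 1 ligand, 1 receptor or adhesion gene, 3 of the protease list, 1 hormone precursor and 1 regulator. Angptl4, Scg2 and Gbp2 lost their calls in both of these fits, F2rl1 with the block, and L1cam and Mmp16 with the name style. With limma on log2(FPKM + 1), 506 genes were called, 1 convertase gene, 2 of the protease list (without Mmp16 and Lipg) and 0 regulators. The share called higher was 63.2% there and 64.2% with log2(FPKM + 0.1), against 50.9% with edgeR, 45.9% with DESeq2 and 42.5% without control replicate 2, so the balance between higher and lower differed by setting. DESeq2 called 1128 of 14666 genes tested, and 4 ligands. Library totals without TMM, added after seeing the data, gave 989 of 13484 genes tested, and 1 regulator. At an adjusted p alone 3036 genes passed. The causes of these shifts were not tested.

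With single libraries left out, the counts ran from 511 to 1575 genes, from 0 to 2 convertase genes, from 1 to 8 ligands, from 1 to 2 receptor and adhesion genes, from 2 to 3 of the protease list, from 0 to 2 hormone precursors, from 1 to 2 genes of the site-1 protease pathway, from 0 to 3 regulators and from 0 to 2 trimming enzymes. The highest total was without control replicate 2 and the lowest without APPswe replicate 3. No called convertase gene changed sign under the settings run. The order of the convertases by level was the same with medians and with counts per kilobase of the longest GENCODE transcript, the latter added after seeing the data; the planned check with protein lengths was not run. Depth limits Pcsk1 and Pcsk4, which had at most 69 and 28 counts in a library.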
